A study of Mus musculus and Sus scrofa with 30 samples.

Results

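The genes described here are 32 genes of peroxisome biogenesis and peroxisomal lipid metabolism, chosen by name: 13 peroxins (the Pex genes) and 19 enzymes and transporters. All 32 were found among the 24843 genes of the mouse data, and 28 among the 34307 genes of the pig data. Pex10, Pex13, Scp2 and Amacr were not analysed in the pig cells. Bulk RNA-seq was done on 3T3-L1 cells, a mouse embryonic fibroblast line that can be turned into fat cells, and on porcine dedifferentiated fat (DFAT) cells, which derive from subcutaneous fat and have gone back to a fibroblast-like state. Both were taken on day 5 of induction, in 5 groups of 3 libraries per cell system: DMSO as vehicle, dicoumarol (an anticoagulant and an inhibitor of NQO1), magnolol (a plant lignan), both compounds together (the combination) and rosiglitazone (a synthetic agonist of the fat cell receptor PPARγ). All 3T3-L1 groups, vehicle included, were kept in 10% serum with dexamethasone at 75 nM, insulin at 0.75 µg/mL and IBMX (a phosphodiesterase inhibitor) at 37.5 µM. All DFAT groups were kept in 2% serum with GlutaMAX at 2 mM, the vitamins biotin at 20 µM and pantothenate at 10 µM, 12.5 µM of IBMX and 0.5 µM of dexamethasone. The sources used here do not give the doses of the compounds under study. They do not say whether the 3 libraries of a group came from separate cultures, so p-values measure only the spread between these libraries. Bulk values cannot tell fewer cells of a type from less RNA per cell.

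Peroxisomes are small single-membrane organelles that shorten very long and branched fatty acids and make the first intermediates of ether lipids. Their membrane proteins are inserted by Pex3, Pex16 and Pex19, and their matrix enzymes are carried in by the receptors Pex5 and Pex7, which dock on Pex13 and Pex14, are modified by RING-finger ligases such as Pex2 and Pex10, and are pulled back out by an ATPase complex that holds Pex6 and is anchored by Pex26. The Pex11 proteins elongate and divide the organelle. Peroxisome number is known to rise as preadipocytes become fat cells, and several peroxisomal genes are known targets of PPAR receptors.

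In 3T3-L1 cells rosiglitazone raised 16 of 31 members tested, 9 of the 13 peroxins and 7 enzymes and transporters (20.3% of all genes). In DFAT cells it raised 4 of 27, by the most PEX11A (5.8% of all genes). Pex10, Pex13 and Scp2, raised in 3T3-L1, were not analysed in DFAT, so the 2 counts are not of the same genes. Values are normalised counts, a gene's reads divided by a size factor of the library. A gene is called here when limma, fitted on log2(normalised count + 1) to every gene with a mean of at least 10, gave a Benjamini-Hochberg adjusted p under 0.05; 31 members passed that minimum in 3T3-L1, all but Ehhadh, and 27 in DFAT, all but ABCD2. In 3T3-L1, rosiglitazone raised 16 of the 31 (20.3% of all 15723 genes tested were called higher) and lowered 1, Pex26 (19.9% of all genes were called lower). The median log2 fold change of the members was 0.41, against −0.0015 for all genes. The combination raised 7 of the 31 and lowered none (3.86% and 1.36% of all genes), with a median of 0.17; without combination replicate 1 it raised 4. Magnolol raised 2, Pex11a and Pex14, and lowered none (1.07% and 0.153% of all genes), with a median of 0.14. Dicoumarol changed none (0 of all genes in either direction); limma gave an unadjusted p under 0.05 for 3 members and 393 of all genes, and the members' median was 0.11. Replicate numbers paired the 3T3-L1 libraries, and with the number as a block the counts of raised members became 1 for dicoumarol (0.458% of all genes), 6 for magnolol (3.52%) and 12 for the combination (8.03%). The 5 members the block added for the combination were Pex10, Scp2, Pex11g (0.51, adjusted p = 0.0134 with the block and 0.0946 without), Abcd4 (0.34, 0.0278 and 0.178) and Hsd17b4 (0.23, 0.048 and 0.221). For rosiglitazone the block gave 16 raised (24.4%) and 3 lowered (25.4%). The share of members raised therefore lay above the share of all genes in the magnolol, combination and rosiglitazone comparisons of 3T3-L1, a description over genes picked by name, with no test. For magnolol it rested on 2 calls without the block, of which 0 held in every fit that left out 1 library.

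In DFAT cells 5 of 27 members were called with rosiglitazone and 1 each with magnolol and the combination. Rosiglitazone raised 4 of 27, PEX11A, HACL1, FAR1 and SLC25A17, and lowered HSD17B4 (5.8% and 5.02% of all 14819 genes tested were called higher and lower), with a median log2 fold change of 0.04 against −0.0057 for all genes; without vehicle replicate 2, 3 members were called. The combination raised PEX11A alone and lowered none (6.11% and 4.06% of all genes), and magnolol likewise raised PEX11A alone (2.96% higher and 1.27% lower). Dicoumarol changed no member (0.911% and 1.03%), with an unadjusted p under 0.05 by limma for 1 member and 1504 of all genes. The medians under dicoumarol, magnolol and the combination were 0.02, −0.05 and 0.01. Set beside all genes, the share of DFAT members raised was higher with rosiglitazone and close or lower with the other treatments, with no test. Of the 4 rises with rosiglitazone, only PEX11A and HACL1 were called in every fit that left out 1 library. The higher share thus rested in part on calls that did not hold. PEX11A was the member called in 3 of the 4 comparisons with vehicle.

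**Figure D1:**
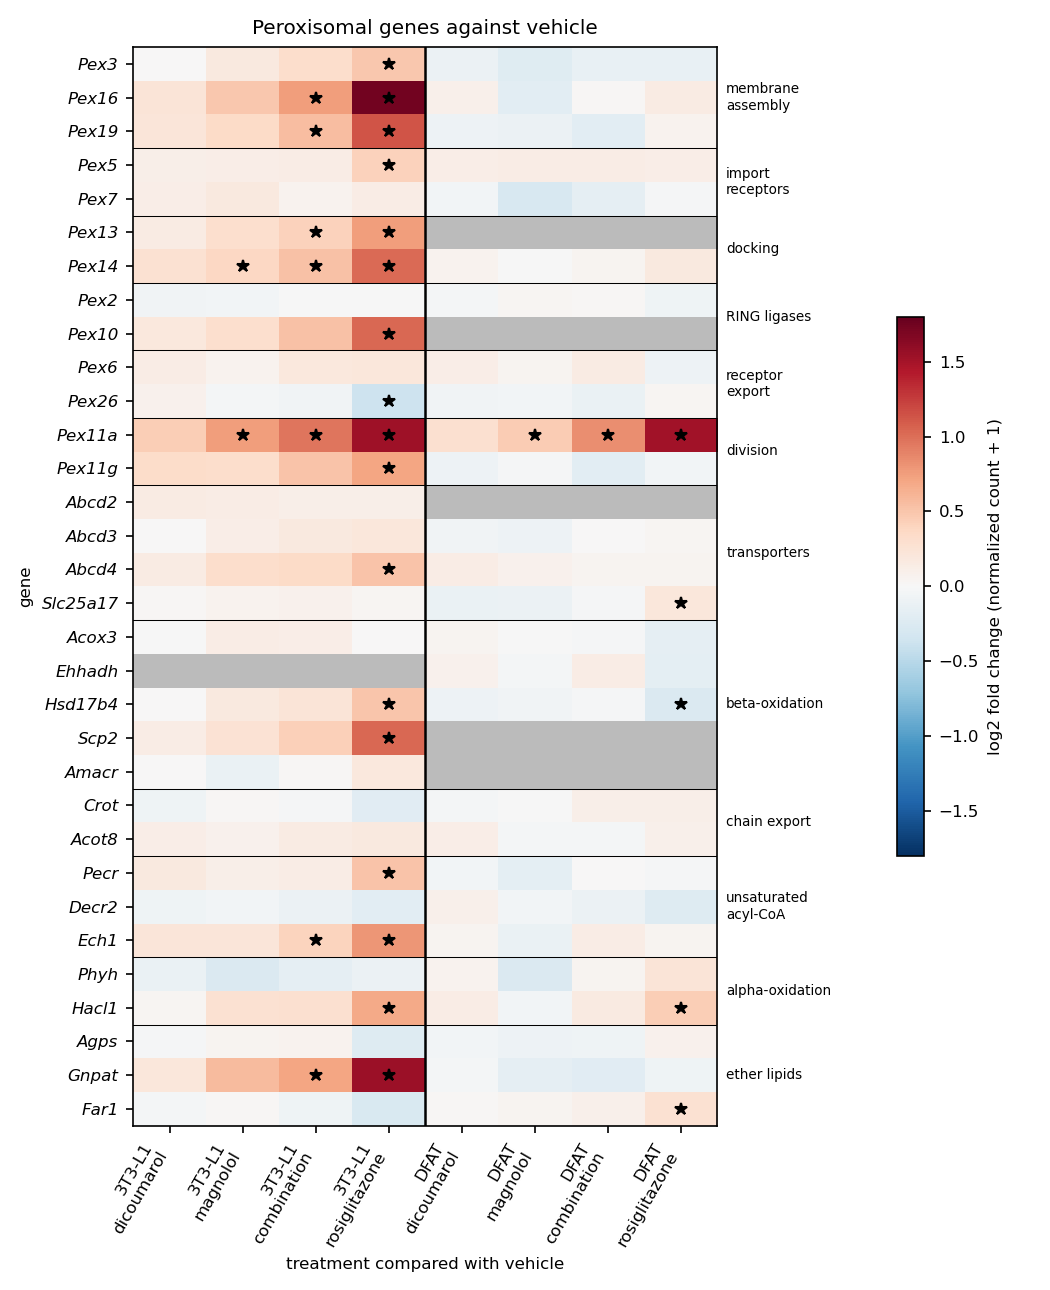
Log2 fold change against vehicle (colour, on log2 of normalised count + 1) of the 32 genes, in rows grouped by role, for the 4 treatments in 3T3-L1 (left) and DFAT cells (right). Stars mark genes called at an adjusted p under 0.05 and grey marks genes not tested or not analysed; the 3T3-L1 rosiglitazone column holds 17 stars, the DFAT rosiglitazone column 5.

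Marker sums of the cultures also differed between the groups in both systems. The summed normalised counts of 10 adipocyte markers, of which 9 had a mean of at least 10 in each system, were 5720.3 to 11281 in the 3T3-L1 vehicle libraries, 13863 to 27582 with dicoumarol, 32241 to 50226 with magnolol, 41719.5 to 73912 with the combination and 183667 to 324812 with rosiglitazone. In DFAT the same sums, in the same order of groups, were 7846 to 9449, 12361 to 13527, 20600.1 to 22759.7, 31693 to 34869.7 and 45018 to 50946. Fabp4 alone read 223878, 119470 and 161477 in the 3T3-L1 rosiglitazone libraries. In DFAT, CFD read 18.6, 15.9 and 7.13 in vehicle and 14.1, 12.0 and 3.06 with rosiglitazone. LEP libraries of these 2 groups overlapped, RETN had a mean of 0, and the other DFAT adipocyte markers were higher with rosiglitazone than in vehicle. Progenitor markers were summed in the same order of groups. In 3T3-L1 (6 of 6 markers) the sums were 53612 to 60586, 49556 to 51227, 43012 to 44021, 37652 to 42968 and 25206 to 32961. In DFAT (4 of 6) they were 90930.3 to 105893, 78950 to 91400, 90011 to 102351, 75867 to 83103 and 55529.8 to 68262. There PDGFRB was higher with dicoumarol, magnolol and the combination (43990 to 48936) than in vehicle (34524 to 42343). PDGFRA was lower with every treatment, and CD34 and DLK1 had means of 15.9 and 0.18. Macrophage markers (3 of 5 in 3T3-L1 and 4 of 5 in DFAT) summed to at most 82.4 and 104 in any library, endothelial markers (4 of 4) to at most 20.5 and 239, and skeletal muscle markers (4 of 4 in DFAT, not analysed in 3T3-L1) to at most 18.6. The mitochondrial share of counts in 3T3-L1 was 5.22% to 7% in vehicle, 6.36% to 7.72% with dicoumarol, 5.94% to 7.46% with magnolol, 6.14% to 7.69% with the combination and 7.66% to 14.3% with rosiglitazone. In DFAT it was 9.58% to 10.2% in vehicle, 10.7% to 11.7% with dicoumarol, 10.5% to 12.9% with magnolol, 12.2% to 15.1% with the combination and 6.85% to 10.8% with rosiglitazone. The DFAT dicoumarol, magnolol and combination libraries thus lay above every vehicle library, as did the 3T3-L1 rosiglitazone libraries. The part of these shifts in the peroxisomal values was not tested. Estimated depth, in reads × 1e6, was 22.8 to 30.7 per 3T3-L1 library and 44.8 to 70.5 per DFAT library.

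Membrane assembly held the largest change of any member. In what follows, differences with an SE are log2 fold changes of the normalised count + 1, folds are the same on a linear scale, and ranges in parentheses are 95% intervals. Pex16, an anchor that brings other membrane proteins into the peroxisome (ENSMUSG00000027222, chromosome 2, 92205021 to 92211562, plus strand, in the coordinates the authors deposited, of a build not stated for them), read 359.9, 307 and 396 normalised counts in the 3T3-L1 vehicle libraries, 407, 391 and 445 with dicoumarol, 565, 438 and 481 with magnolol, 616, 546 and 617 with the combination and 1374, 1104 and 1076 with rosiglitazone. The rosiglitazone libraries lay apart from all the others, and the magnolol and combination libraries lay above every vehicle library. The rosiglitazone difference was 1.74 ± 0.13 (SE), adjusted p = 1.84e-07, a 3.33-fold rise. With the combination Pex16 rose by 0.75 ± 0.13 (SE), adjusted p = 0.00258. Under magnolol the log2 fold change was 0.48 ± 0.13 (SE), adjusted p = 0.0963, and 0.00716 with the replicate block.

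Pex19, the cytosolic chaperone of peroxisomal membrane proteins (ENSMUSG00000003464, chromosome 1, 171954322 to 171964060, plus strand), read 1822, 1609 and 1688 in 3T3-L1 vehicle, 1958, 1933 and 2054 with dicoumarol, 2436, 1999.8 and 2079.8 with magnolol, 2765, 2317 and 2476 with the combination and 3900.1, 3639 and 3674 with rosiglitazone. Every treated library lay above every vehicle library. It rose with rosiglitazone (1.13 ± 0.09 (SE), adjusted p = 3.66e-07) and with the combination (0.56 ± 0.09 (SE), adjusted p = 0.00204). The magnolol value, 0.34, had an adjusted p of 0.0958, and of 0.00524 with the block. Pex3, the membrane dock for Pex19, read 488, 574 and 444 in vehicle and 667, 688 and 748 with rosiglitazone, where it rose by 0.49 ± 0.11 (SE), adjusted p = 0.00275. All 3 membrane assembly genes thus rose with rosiglitazone in 3T3-L1, 2 of 3 with the combination and none with magnolol or dicoumarol without the block.

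In DFAT none of the 3 was called in any comparison with vehicle. PEX16 read 379.6, 369.9 and 334 in vehicle and 474, 369 and 363 with rosiglitazone, with overlapping libraries and a log2 fold change of 0.14 (95% interval −0.12 to 0.41). PEX19 had 0.06 (−0.10 to 0.22) and PEX3 −0.13 (−0.28 to 0.02). The combination libraries of PEX19, at 5549, 5741 and 5162, lay below its vehicle libraries, at 6295, 5991 and 6477, with a log2 fold change of −0.19 ± 0.07 (SE), adjusted p = 0.125.

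Among the genes of matrix protein import, both docking genes rose in 3T3-L1. Pex14, a docking protein (ENSMUSG00000028975, chromosome 4, 149044992 to 149184333, minus strand), read 905, 832 and 861 in vehicle, 1027, 1039 and 1062 with dicoumarol, 1149.7, 1086 and 1133 with magnolol, 1301, 1256 and 1183 with the combination and 1669, 1938 and 1663 with rosiglitazone. No treated library overlapped the vehicle libraries. Pex14 rose with rosiglitazone (1.02 ± 0.08 (SE), adjusted p = 3.47e-07), the combination (0.53 ± 0.08 (SE), adjusted p = 0.00151) and magnolol (0.37 ± 0.08 (SE), adjusted p = 0.0317). The magnolol call was lost when any 1 of the 6 vehicle and magnolol libraries was left out (adjusted p 0.0617 to 0.17), without a variance trend (0.0652) and with only the groups compared (0.123). Pex13, the partner of Pex14 in the membrane, read 1679, 1935 and 1921 in vehicle, 2427, 2302 and 2687 with the combination and 3197, 2837 and 3337 with rosiglitazone. It rose with rosiglitazone (0.76 ± 0.10 (SE), adjusted p = 1.78e-05) and with the combination (0.42 ± 0.10 (SE), adjusted p = 0.0168), the latter call being lost without vehicle replicate 1 (0.0781), combination replicate 1 (0.068) or combination replicate 3 (0.0812). With the block Pex13 was also called higher under magnolol (log2 fold change 0.31, adjusted p = 0.0201; 0.189 without it). In DFAT, PEX14 read 669.6, 735 and 605 in vehicle and 746, 761 and 764 with rosiglitazone. These libraries did not overlap, but the difference was not called (0.18 ± 0.07 (SE), adjusted p = 0.144).

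Of the 2 import receptors, Pex5, which carries most matrix enzymes, rose with rosiglitazone in 3T3-L1 (0.41 ± 0.08 (SE), adjusted p = 0.000848), from 2039.9, 1773 and 1831 to 2578, 2502 and 2424, while Pex7, which carries a small set of enzymes such as Phyh and Agps, had a log2 fold change of 0.13 (−0.08 to 0.35). Of the 2 RING ligases, Pex10 (ENSMUSG00000029047, chromosome 4, 155151473 to 155156890, plus strand) read 154, 134 and 145 in vehicle, 177, 148 and 169 with dicoumarol, 220.2, 159 and 162 with magnolol, 223, 209 and 196 with the combination and 382, 238 and 282 with rosiglitazone. Rosiglitazone replicate 1 was the highest of these libraries, and all 3 rosiglitazone libraries lay above the rest. Pex10 rose by 1.03 ± 0.17 (SE), adjusted p = 0.000184, while its partner Pex2 had −0.01 (−0.19 to 0.18). For the combination the Pex10 value was 0.53 ± 0.17 (SE), adjusted p = 0.0852, and 0.00695 with the block. Among the genes of receptor export, Pex26, the membrane anchor of the export ATPase, was the single member lowered by rosiglitazone: it read 400.0, 383 and 381 in vehicle and 308, 331 and 266 with rosiglitazone (−0.37 ± 0.13 (SE), adjusted p = 0.0385). That call was lost in 5 of the 6 fits that left out 1 library (adjusted p 0.0651 to 0.148), with no minimum mean (0.0535) and with only the groups compared (0.0685). Pex6, a subunit of that ATPase, had 0.20 (−0.13 to 0.53). In DFAT the tested receptor, ligase and export genes had log2 fold changes between −0.09 (PEX6) and 0.12 (PEX5) with rosiglitazone, and none was called.

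Of the 2 division genes, Pex11a was called in both systems and Pex11g in 3T3-L1. Pex11a, which elongates peroxisomes before they divide (ENSMUSG00000030545, chromosome 7, 79385705 to 79392879, minus strand), read 438, 418 and 422 in 3T3-L1 vehicle, 623, 535 and 591 with dicoumarol, 758, 640.2 and 762 with magnolol, 946, 707 and 853 with the combination and 1307, 989.6 and 1442 with rosiglitazone. Every treated library lay above every vehicle library, and every rosiglitazone library lay above every other one. The rise was 2.89-fold with rosiglitazone (1.53 ± 0.14 (SE), adjusted p = 7.61e-07), 1.95-fold with the combination (0.96 ± 0.14 (SE), adjusted p = 0.000985) and 1.68-fold with magnolol (0.75 ± 0.14 (SE), adjusted p = 0.0132). The magnolol call did not survive leaving out magnolol replicate 1 (0.0823), magnolol replicate 3 (0.0748), vehicle replicate 2 (0.0549) or vehicle replicate 3 (0.0539). With dicoumarol the log2 fold change of 0.45 ± 0.14 (SE) was not called, and was called with the replicate block (adjusted p = 0.0373).

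The pig gene PEX11A (ENSSSCG00000027052, chromosome 7, 55256220 to 55264247, minus strand) read 291, 306 and 331 in vehicle, 363, 412 and 362 with dicoumarol, 407, 469.8 and 397 with magnolol, 624, 560.1 and 487 with the combination and 932, 935 and 790.3 with rosiglitazone. As in the mouse cells, no treated library overlapped the vehicle libraries. PEX11A rose 2.85-fold with rosiglitazone (1.51 ± 0.11 (SE), adjusted p = 2.19e-08), 1.79-fold with the combination (0.84 ± 0.11 (SE), adjusted p = 3.74e-05) and 1.37-fold with magnolol (0.45 ± 0.11 (SE), adjusted p = 0.019). The magnolol call did not survive leaving out magnolol replicate 2 (0.0961), vehicle replicate 1 (0.0982) or vehicle replicate 2 (0.0536). Dicoumarol alone gave 0.29 ± 0.11 (SE), adjusted p = 0.267.

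Pex11g, a relative of Pex11a in the same family, rose with rosiglitazone in 3T3-L1 (0.71 ± 0.17 (SE), adjusted p = 0.00302), although rosiglitazone replicate 3, at 199, lay below all 3 combination libraries. In DFAT it had −0.05 (−0.42 to 0.31). In both species the gene next to Pex11a on the same strand was Plin1, which codes for the lipid droplet coat protein perilipin 1: the gap was 3053 bases in the mouse table and 5422 bases in the pig table, with no listed gene between. Plin1 read 306, 114 and 184 in 3T3-L1 vehicle and 5395, 4049.6 and 5702 with rosiglitazone, and 130.2, 155 and 135 and 5128, 4331 and 4589 in DFAT. Its log2 fold changes with magnolol, the combination and rosiglitazone were 3.06, 3.45 and 4.74 in 3T3-L1 and 3.90, 4.79 and 5.05 in DFAT, all called.

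**Figure D2:**
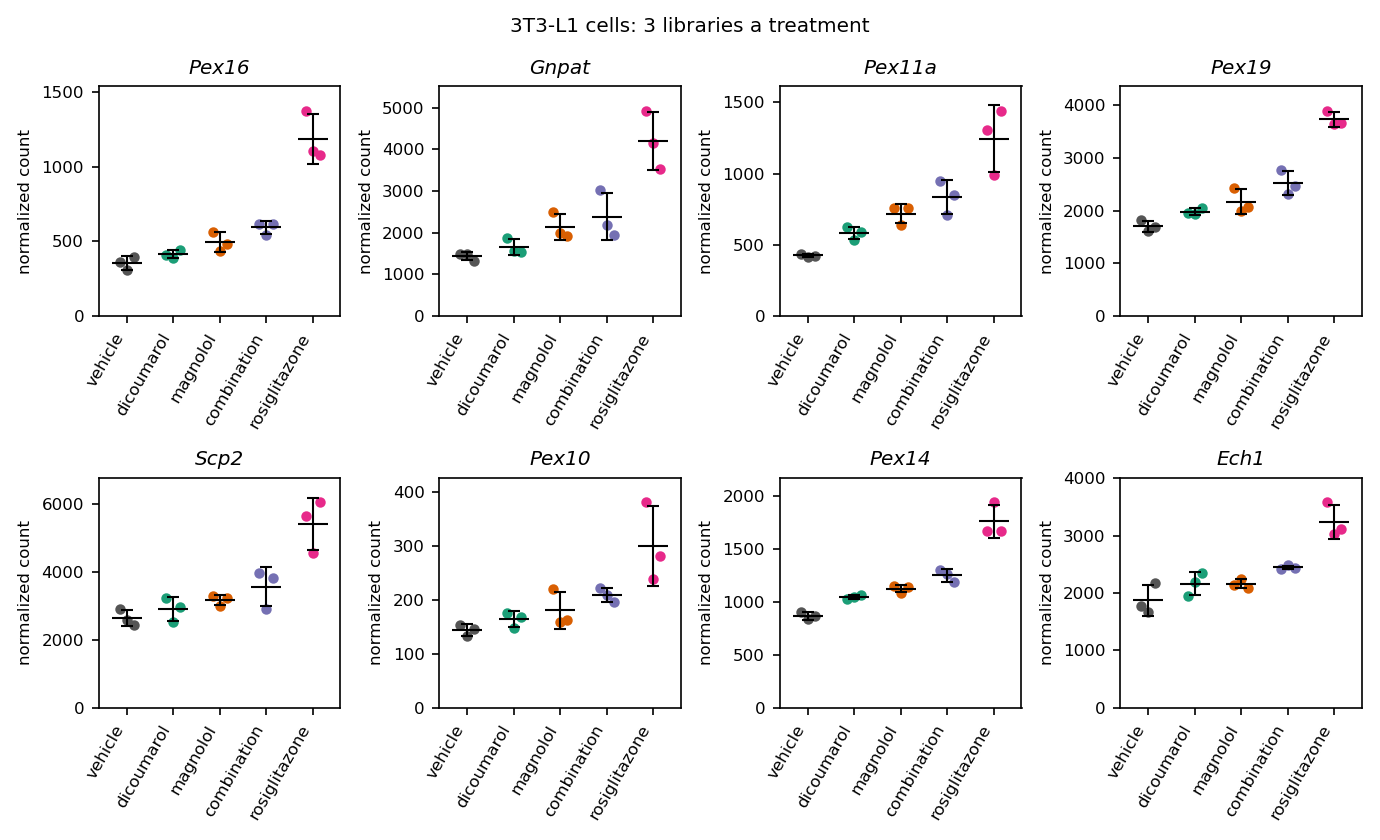
Normalised counts (vertical axes, from 0) of the 8 members with the largest called changes in 3T3-L1 cells, by treatment; points are the 3 libraries, lines and bars the mean ± SD. In each panel the rosiglitazone points are the highest; those of Pex16 lie between 1076 and 1374, against 307 to 396 in vehicle.

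Promoter sequence is shown for 5 members: Pex16, Gnpat and Pex11a because they had the largest changes, and Scp2 and Pex11g because among the members' windows they alone held a hexamer half-site of the PPAR and RXR receptors. The windows are the 250 bases before each RefSeq start in the mouse build GRCm38.p6, 5′ to 3′ on the gene's strand. Capitals mark matches on either strand to AGGTCA (the half-site), GGGCGG (the GC box) and CCAAT, and no matches overlap in the windows printed. The first of 2 starts is shown for Pex16.
Pex16, chr2:92374426-92374675, plus strand: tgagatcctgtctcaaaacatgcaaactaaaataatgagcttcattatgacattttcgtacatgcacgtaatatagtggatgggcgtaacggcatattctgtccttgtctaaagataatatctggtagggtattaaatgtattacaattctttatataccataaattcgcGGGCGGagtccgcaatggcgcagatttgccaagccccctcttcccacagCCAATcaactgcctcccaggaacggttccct
Gnpat, chr8:124862783-124863032, plus strand: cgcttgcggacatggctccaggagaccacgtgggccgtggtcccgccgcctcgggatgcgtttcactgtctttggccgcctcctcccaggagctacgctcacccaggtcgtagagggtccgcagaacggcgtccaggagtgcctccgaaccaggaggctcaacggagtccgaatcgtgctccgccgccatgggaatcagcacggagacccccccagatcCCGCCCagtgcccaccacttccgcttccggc
Pex11a, chr7:79743132-79743381, minus strand: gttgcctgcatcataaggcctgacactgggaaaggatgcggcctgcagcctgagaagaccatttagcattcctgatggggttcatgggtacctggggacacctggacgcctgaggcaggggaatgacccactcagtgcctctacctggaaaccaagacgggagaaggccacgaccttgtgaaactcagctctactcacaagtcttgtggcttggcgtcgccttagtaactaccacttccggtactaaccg
Scp2, chr4:108118548-108118797, minus strand: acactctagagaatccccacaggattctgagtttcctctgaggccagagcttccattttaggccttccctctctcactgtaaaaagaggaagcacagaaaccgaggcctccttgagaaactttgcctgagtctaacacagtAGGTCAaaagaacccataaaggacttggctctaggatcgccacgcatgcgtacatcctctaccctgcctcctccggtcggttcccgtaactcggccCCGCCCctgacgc
Pex11g, chr8:3467649-3467898, minus strand: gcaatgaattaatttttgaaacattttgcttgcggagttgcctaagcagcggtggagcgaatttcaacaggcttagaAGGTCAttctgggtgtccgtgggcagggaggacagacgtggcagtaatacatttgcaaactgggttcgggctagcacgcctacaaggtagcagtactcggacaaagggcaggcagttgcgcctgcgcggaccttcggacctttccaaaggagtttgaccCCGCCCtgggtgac
Windows were at hand for 26 of the 32 members, 30 windows in all. AGGTCA occurred in 2 of the 30 (6.67%, against 14.0% of the 32851 windows of all genes), 103 bases before the start in Scp2 and 167 bases before it in Pex11g. The half-site repeated with 1 base between (AGGTCANAGGTCA), on either strand with at most 2 mismatches, occurred in 0 of 30 (3.24% of all windows). GGGCGG occurred in 21 windows (70%, against 32.7%) and CCAAT in 12 (40%, against 33.8%). These are matches of letters, not sites, and they say nothing of sequence outside the windows.

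Of the 4 transporters 1 was called with rosiglitazone in 3T3-L1 and, of the 3 tested, a different 1 in DFAT. In 3T3-L1, Abcd4 rose with rosiglitazone (0.52 ± 0.13 (SE), adjusted p = 0.00543), from 553, 434 and 571 to 891, 648 and 699; the protein was first placed in peroxisomes and is now known for vitamin B12 export from lysosomes. The fatty acyl-CoA importer Abcd3 had 0.20 (−0.02 to 0.42) and its relative Abcd2 0.10 (−0.39 to 0.60). Slc25a17, the peroxisomal carrier of coenzyme A and other cofactors, read 1800.2, 1790.5 and 1815 in 3T3-L1 vehicle and 1691, 1891 and 1949 with rosiglitazone, a log2 fold change of 0.03 (−0.14 to 0.20). In DFAT, SLC25A17 (ENSSSCG00000000072, chromosome 5, 7622646 to 7670283, plus strand) read 5789.6, 5609 and 6186 in vehicle, 5309, 5313 and 5548 with dicoumarol, 5228, 5687 and 5377 with magnolol, 5968, 5966 and 5476 with the combination and 6732, 7129.5 and 6304 with rosiglitazone. The rosiglitazone libraries were the highest, by a small margin. The rise (0.20 ± 0.06 (SE), adjusted p = 0.0468) was lost in 4 of 6 fits that left out 1 library (0.0947 to 0.176), with no minimum mean (0.07), without a variance trend (0.0768) and with only the groups compared (0.197).

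Of the genes of peroxisomal beta-oxidation, Scp2 and Hsd17b4 rose with rosiglitazone in 3T3-L1. Scp2 codes for a thiolase of branched chains and a lipid carrier (ENSMUSG00000028603, chromosome 4, 107901036 to 108002195, minus strand). It read 2905, 2594 and 2430.2 in vehicle, 3229, 2523 and 2968 with dicoumarol, 3291, 2997 and 3235 with magnolol, 3968, 2907 and 3818 with the combination and 5655, 4575 and 6065 with rosiglitazone. The rosiglitazone libraries lay above all others and the combination libraries overlapped those of dicoumarol and magnolol. Scp2 rose by 1.03 ± 0.13 (SE), adjusted p = 1.91e-05; the combination value was 0.42 ± 0.13 (SE), adjusted p = 0.079, and 0.00356 with the block. On the same strand Scp2 overlaps Podn, whose mean was 27.2 against 3544 for Scp2. Hsd17b4, the bifunctional enzyme that hydrates and dehydrogenates branched and very long chains, read 1489, 1478 and 1465 in 3T3-L1 vehicle and 2026, 2076 and 2179.6 with rosiglitazone (0.50 ± 0.10 (SE), adjusted p = 0.000714). It overlaps on the same strand a pseudogene of Cd63 with a mean of 5421, so its value is uncertain where reads could be split between them. The branched-chain oxidase Acox3 had 0.0037 (−0.23 to 0.24) and the racemase Amacr 0.18 (−0.08 to 0.45). Ehhadh, the other bifunctional enzyme, had 0.856 to 11.2 normalised counts in the 15 3T3-L1 libraries and was not tested.

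In DFAT, HSD17B4 fell with rosiglitazone and the other 2 beta-oxidation genes tested did not pass. HSD17B4 (ENSSSCG00000028431, chromosome 2, 123313448 to 123402709, plus strand) read 7755, 7794 and 8214 in vehicle, 7207, 7424 and 7738 with dicoumarol, 7299, 7556 and 7896 with magnolol, 7464, 7667 and 8276 with the combination and 6434, 6682 and 6691 with rosiglitazone. All 3 rosiglitazone libraries lay below the other 12. HSD17B4 fell by 0.26 on the log2 scale (SE 0.06, adjusted p = 0.00385) and remained called in each of the 6 fits that left out 1 library. EHHADH, at 2185, 2096 and 2310.5 in vehicle and 1753, 2280.4 and 1827 with rosiglitazone, had −0.18 ± 0.09 (SE), adjusted p = 0.236, and ACOX3 had −0.16 ± 0.10 (SE), adjusted p = 0.416.

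Neither gene of chain-shortened product export was called in either system without the block. Crot, which makes carnitine esters of medium chains, had −0.20 in 3T3-L1 with rosiglitazone (adjusted p = 0.276, and 0.0442 with the block), and the thioesterase Acot8 had 0.18 (−0.11 to 0.47). Among the auxiliary enzymes of unsaturated chains, 2 of 3 rose with rosiglitazone in 3T3-L1. Ech1, a dienoyl-CoA isomerase found in peroxisomes and mitochondria (ENSMUSG00000053898, chromosome 7, 28524642 to 28531672, plus strand), read 1767, 1667 and 2173 in vehicle, 1945, 2193 and 2346 with dicoumarol, 2144, 2242 and 2089 with magnolol, 2417, 2481 and 2439 with the combination and 3583, 3025 and 3119 with rosiglitazone. The rosiglitazone libraries stood apart and the combination libraries lay above those of vehicle, dicoumarol and magnolol. The rosiglitazone rise was 0.80 ± 0.10 (SE), adjusted p = 2.07e-05. The combination rise (0.40 ± 0.10 (SE), adjusted p = 0.034) was lost in 5 of 6 fits that left out 1 library (0.0841 to 0.129), without a variance trend (0.0666), with quantile normalisation (0.0721) and with only the groups compared (0.0771). Pecr, an enoyl-CoA reductase, rose with rosiglitazone from 188, 167 and 171 to 261, 252 and 235 (0.51 ± 0.11 (SE), adjusted p = 0.00149). Decr2, a dienoyl-CoA reductase, had −0.19 (adjusted p = 0.0793; 0.0299 with the block and 0.0478 with quantile normalisation). In DFAT the 5 genes had log2 fold changes of −0.24 (DECR2) to 0.10 (CROT) with rosiglitazone, and none was called.

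In alpha-oxidation, the removal of single carbons from methyl-branched acids such as phytanic acid, Hacl1 rose in both systems with rosiglitazone. Hacl1, the lyase that cleaves the hydroxylated acyl-CoA, read 202, 188 and 182 in 3T3-L1 vehicle and 347, 290.3 and 288 with rosiglitazone (0.68 ± 0.12 (SE), adjusted p = 0.000346). In DFAT, HACL1 (ENSSSCG00000011192, chromosome 13, 2766514 to 2840902, minus strand) read 579, 599 and 585 in vehicle, 671, 638 and 617 with dicoumarol, 591, 543 and 571 with magnolol, 671, 655 and 653 with the combination and 831, 796 and 771 with rosiglitazone. Its rosiglitazone libraries lay above the other 12 and its combination libraries above vehicle. HACL1 rose with rosiglitazone (0.44 ± 0.07 (SE), adjusted p = 0.000216); the combination value, 0.17 ± 0.07 (SE), adjusted p = 0.136, was not called. Hacl1 overlaps the opposite-strand gene BTD in both species. The mean of that neighbour was 891 against 232 for Hacl1 in 3T3-L1, and 3377 against 651 in DFAT. The sources used here do not say whether counting used strand, so the Hacl1 values are uncertain where reads could be split. Phyh, the hydroxylase of the preceding step, had −0.11 in 3T3-L1 (−0.40 to 0.18) and 0.23 ± 0.07 (SE), adjusted p = 0.0634 in DFAT, where its rosiglitazone libraries, at 10001, 9457 and 9156, lay above vehicle, at 8906, 7427 and 8191.

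Of the 3 ether lipid genes, Gnpat was called in 3T3-L1 and FAR1 in DFAT. Gnpat, the acyltransferase of the first step of ether lipid synthesis (ENSMUSG00000031985, chromosome 8, 125589772 to 125616796, plus strand), read 1501, 1487 and 1320.5 in 3T3-L1 vehicle, 1879, 1556 and 1548 with dicoumarol, 2502, 2005 and 1919 with magnolol, 3025, 2195 and 1944 with the combination and 4925, 4141 and 3522 with rosiglitazone. Every treated library lay above every vehicle library, and the rosiglitazone libraries lay above all others. Gnpat rose 2.9-fold with rosiglitazone (1.54 ± 0.16 (SE), adjusted p = 2.68e-06) and 1.64-fold with the combination (0.71 ± 0.16 (SE), adjusted p = 0.0144). The combination call was lost without vehicle replicate 3 (0.0615) or combination replicate 1 (0.099). Under magnolol the value was 0.57 ± 0.16 (SE), adjusted p = 0.115, and 0.000556 with the block. Gnpat overlaps the opposite-strand gene 2810004N23Rik by 88 bases. Agps, the synthase of the next step, had −0.24 (−0.55 to 0.08) with rosiglitazone, and Far1, the reductase that supplies the fatty alcohol, −0.27 (−0.59 to 0.05).

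In DFAT the called ether lipid gene was FAR1 (ENSSSCG00000021170, chromosome 2, 45462210 to 45605107, minus strand), which read 5266, 5027 and 6026 in vehicle, 5245, 5532 and 5746 with dicoumarol, 5458, 5474 and 5864 with magnolol, 5826, 5809 and 5759.8 with the combination and 6231, 7067 and 6355 with rosiglitazone. The lowest rosiglitazone library lay above the highest vehicle library by a small margin. FAR1 rose by 0.27 ± 0.07 (SE), adjusted p = 0.0152; the call did not survive leaving out rosiglitazone replicate 2 (0.055), vehicle replicate 1 (0.0675) or vehicle replicate 2 (0.0914), nor with only the groups compared (0.104). GNPAT read 2043, 1922 and 2280.0 in vehicle and 1871, 2113 and 1915 with rosiglitazone (−0.08 ± 0.08 (SE), adjusted p = 0.632), and AGPS had 0.08 (−0.09 to 0.25).

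**Figure D3:**
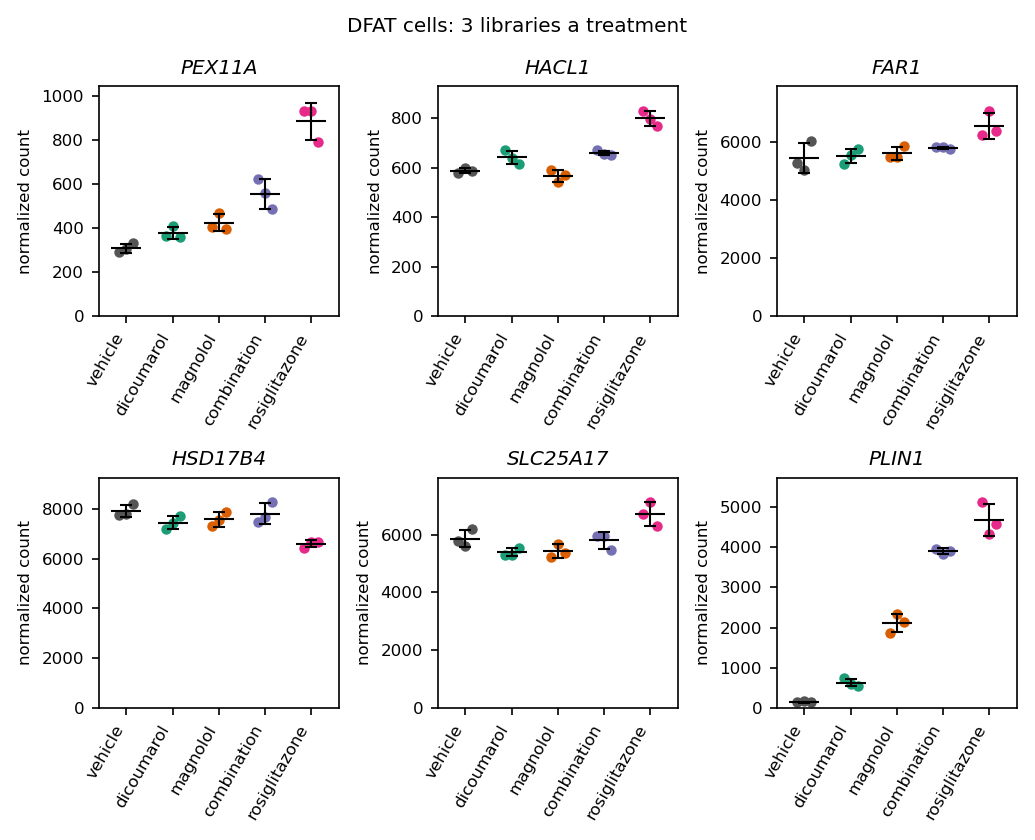
Normalised counts (vertical axes, from 0) in DFAT cells of the 5 called members and of PLIN1, the neighbour of PEX11A, by treatment; points are the 3 libraries, lines and bars the mean ± SD. PEX11A lies between 790.3 and 935 with rosiglitazone against 291 to 331 in vehicle, while the rosiglitazone points of HSD17B4 are its lowest.

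The comparisons among treatments asked whether the combination differed from each compound alone and from rosiglitazone. In 3T3-L1 limma called no member between the combination and dicoumarol (0.0254% of all genes were called higher and 0 lower). An unadjusted p under 0.05 by limma was found for 9 of 31 members and 1273 of all 15723 genes. With the replicate block 4 were called higher in the combination (2.49% of all genes): Pex16 (0.52, adjusted p = 0.00697), Pex11a (0.51, 0.00446), Gnpat (0.50, 0.00265) and Pex19 (0.34, 0.00856). Between the combination and magnolol limma called no member with or without the block (0 of all genes without it). Without the block, 1 member and 336 of all genes had an unadjusted p under 0.05 by limma. In DFAT, PEX11A was higher in the combination than with dicoumarol (0.55 ± 0.11 (SE), adjusted p = 0.00765; 2% of all genes were called higher and 0.344% lower), a call lost without dicoumarol replicate 1 (0.051) or combination replicate 1 (0.0532). Between the combination and magnolol no DFAT member was called (0.621% of all genes). There 4 members had an unadjusted p under 0.05 by limma, with the count over all genes not given here. With the block in limma, PEX11A (0.39, adjusted p = 0.0436) and PHYH (0.31, 0.00565) were called higher (1.02% of all genes). Replicate numbers paired the magnolol and combination libraries (lowest correlation 0.118). The block was fitted to all DFAT groups, however, and the numbers did not pair the vehicle libraries with the others, so these calls are uncertain.

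The dicoumarol by magnolol interaction is the excess of the combination over the sum of both single changes on the log2 scale. By limma it was called for none of the 31 members in 3T3-L1 (0 of all genes). In DFAT it was called for none of the 27 (0.081% of all genes). At an unadjusted p under 0.05 by limma there were 0 members and 78 of all genes in 3T3-L1. In DFAT there were 2 members, with the count over all genes not given here. For Pex11a the interaction was −0.24 ± 0.19 (SE) in 3T3-L1 (95% interval −0.65 to 0.17) and 0.10 ± 0.15 (SE) in DFAT (−0.22 to 0.41).

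Rosiglitazone exceeded the combination in 3T3-L1 for 11 of 31 members and fell below it for none (9.53% and 8.78% of all genes). The differences ranged from 0.28 for Pex5 to 0.99 for Pex16 (0.99 ± 0.13 (SE), adjusted p = 0.000531), with Gnpat at 0.83, Scp2 at 0.61, Pex19 at 0.57 and Pex11a at 0.57. Without rosiglitazone replicate 1 the count was 5 and without combination replicate 2 it was 7. With the block Pex10 (0.00548) and Hsd17b4 (0.0104) were also called higher and Pex26 (0.0395) lower (16.1% and 17.2% of all genes). In DFAT, 4 members were higher with rosiglitazone than with the combination and 2 lower (8.24% and 8.79% of all genes): PEX11A (0.67 ± 0.11 (SE), adjusted p = 0.00026), HACL1 (0.28), PEX19 (0.25) and SLC25A17 (0.21) were higher, and EHHADH (−0.31) and HSD17B4 (−0.24) lower. The PEX11A, HSD17B4 and HACL1 calls held in each fit that left out 1 library. With only the groups compared, however, just 1 DFAT member was called. With the block in limma, PHYH (0.0283) and FAR1 (0.0438) were also called higher and PEX6 (0.0149) lower (12.4% and 12.6% of all genes). That block too was fitted to all DFAT groups, including the vehicle libraries that the numbers do not pair.

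Mouse and pig values are set side by side without a test, since the tables were normalised separately. Of the 26 members tested in both, 13 had the same sign with rosiglitazone, 12 with the combination, 8 with magnolol and 12 with dicoumarol. Neither these signs nor the calls shared by both systems were counted over all genes, so the counts describe the members alone. With rosiglitazone 3 were called in both systems: Pex11a (1.53 in 3T3-L1 and 1.51 in DFAT), Hacl1 (0.68 and 0.44) and Hsd17b4 (0.50 and −0.26), the last with opposite signs. The mouse Hsd17b4 value is uncertain because of the same-strand overlap with a Cd63 pseudogene. Pex11a was also the member called in both with the combination and with magnolol. Pex16 and Gnpat, which had the largest values in 3T3-L1, were at 0.14 and −0.08 in DFAT.

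**Figure D4:**
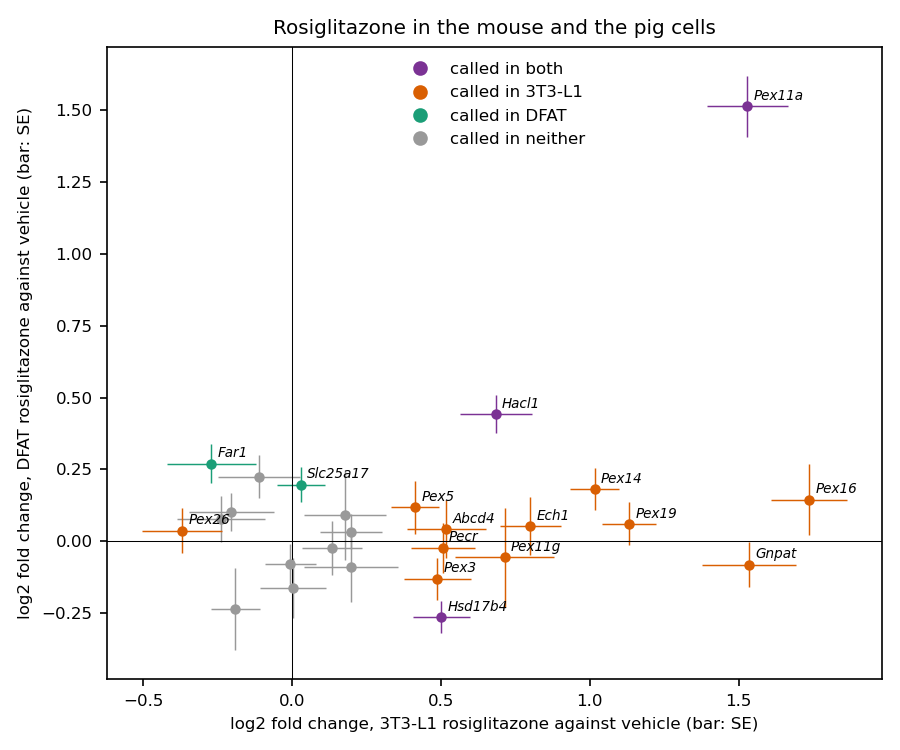
Log2 fold change of rosiglitazone against vehicle in 3T3-L1 (horizontal) and DFAT cells (vertical) for the 26 members tested in both; bars are standard errors and colours mark in which system a gene was called. Pex11a lies near 1.5 on both axes, whereas Pex16, Gnpat and Pex19 lie far to the right and close to 0 on the vertical axis.

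Other genes of the peroxisome were read from a list of 48, of which 38 were tested in 3T3-L1 and 40 in DFAT. With rosiglitazone 22 rose and 3 fell in 3T3-L1 (median 0.39; 20.3% and 19.9% of all genes were called higher and lower), and 10 rose and 2 fell in DFAT (median 0.06; 5.8% and 5.02%). The combination raised 7 and lowered none in 3T3-L1 (3.86% and 1.36%), and raised 4 and lowered 1 in DFAT (6.11% and 4.06%). Magnolol raised 2 and lowered none in 3T3-L1 (1.07% and 0.153%), and raised 1 and lowered 3 in DFAT (2.96% and 1.27%). Dicoumarol lowered 1 in DFAT (1.03%) and changed none in 3T3-L1 (0). In 3T3-L1 limma gave an unadjusted p under 0.05 for 2 of the list and 393 of all genes. The largest rises in 3T3-L1 were those of the thiolase gene Acaa1b (2.82 ± 0.28 (SE), adjusted p = 2.28e-06), which has a close copy in Acaa1a and is therefore uncertain, of the epoxide hydrolase Ephx2 (2.01) and of Hsdl2 (1.29). Among those that fell were the fatty aldehyde dehydrogenase Aldh3a2 (−0.61) and Mpv17 (−0.32), a protein also known from the inner mitochondrial membrane. In DFAT the largest rises, all with rosiglitazone, were SLC27A2, an acyl-CoA synthetase (2.34 ± 0.22 (SE), adjusted p = 9.78e-07), the thiolase ACAA1 (1.04) and the reductase DHRS4 (0.90). The largest falls were the protease TYSND1 with magnolol (−0.48 ± 0.13 (SE), adjusted p = 0.0457), catalase with dicoumarol (−0.42 ± 0.07 (SE), adjusted p = 0.00217) and PRDX5 with magnolol (−0.33).

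For context, catalase, the peroxisomal enzyme that breaks down hydrogen peroxide, was called in no 3T3-L1 comparison with vehicle and was lower in DFAT with dicoumarol, magnolol and the combination (−0.42, −0.41 and −0.26) but not called with rosiglitazone (0.06). Pparg, the receptor that rosiglitazone binds, rose with the combination and rosiglitazone in 3T3-L1 (0.65 and 0.65) and with magnolol, the combination and rosiglitazone in DFAT (0.35, 0.64 and 0.48). Ppara, the receptor best known for peroxisome proliferation in liver, was called in neither system, with rosiglitazone values of −0.50 and −0.02. The coactivator Ppargc1a rose in DFAT with the combination (2.70) and rosiglitazone (4.32), from 5.92, 0 and 4.07 normalised counts in vehicle to 17.7, 21.9 and 21.7 and 64.1, 73.6 and 57, and was not called in 3T3-L1. The fat cell hormone gene Adipoq rose in both systems with magnolol, the combination and rosiglitazone, and in DFAT also with dicoumarol (3.39). The first 3 values were 2.88, 3.18 and 5.06 in 3T3-L1 and 5.75, 6.29 and 7.15 in DFAT.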

How the data were processed

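Each cell system had 15 RNA-seq libraries in 5 groups of 3, from a strand-marking mRNA kit, per the labels' protocols. The authors deposited signal, namely DESeq2 size-factor normalised counts, in 1 table per species, per the labels. The submitters' processing notes name bcl2fastq 2.19.1.403, STAR, DESeq2 and GRCm38; the counter and the annotation were not given. Mouse starts equalled those of a GRCm38 annotation in 2.18% of 24070 matched genes, so coordinates of genes are those deposited, their build unstated, and only promoters (RefSeq) are in GRCm38.p6. Low values were whole multiples of 1 read (tolerance 0.02, up to 20 reads) in 81.7% to 82.7% of cases in 3T3-L1 and 89.7% to 91.0% in DFAT, so whole reads were not recovered and no count test was run.

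Genes with a mean of at least 10 entered limma (version 3.58.1, R version 4.3.3) as log2(value + 1), which understates changes of low genes. All 5 groups were in 1 model with a trended prior variance. Two-sided p-values were adjusted by Benjamini-Hochberg over all genes, with a threshold of 0.05. The fit was also run on simulated data that held no replicate effect. Its outcome is not given here, and it cannot speak to the pairing of libraries. Members, lists and rules were chosen with earlier results of these data known. The rule gave all library values for the first 8 members by largest called change with vehicle, and named up to 3 rises and 3 falls among other peroxisomal genes; some results under these rules are not reported here. The labels do not say what a replicate number marks. In 3T3-L1 all 30 same-number pairs of libraries correlated in their deviations above 0.1 (lowest 0.106, median 0.300), against a median of −0.142 for 60 other pairs. In DFAT this held for magnolol with the combination (lowest 0.118) and the combination with rosiglitazone (lowest 0.105), not for pairs with vehicle. Alternatives were a pseudocount of 0.5, no minimum mean, no variance trend, only the groups compared, quantile normalisation, the replicate block and leaving out each library. Python 3.11.15, numpy 2.4.6, pandas 2.3.3 and matplotlib 3.10.9 were used for tables and plots.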

Additional observations from a re-analysis of the deposited data

Results flagged for a closer look

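Of 24 pairs of a gene and a treatment that were called in at least 1 system, 4 went opposite ways in every treated library. In these, all 3 treated libraries lay above the vehicle mean in one system and all 3 below it in the other. For each, the difference between systems was not tested, and such pairs were not counted over all genes. Gnpat with the combination had a log2 fold change of 0.71 in 3T3-L1 (adjusted p = 0.0144) and −0.20 in DFAT (0.117). Pex19 with the combination had 0.56 in 3T3-L1 (0.00204) and −0.19 in DFAT (0.125). Hsd17b4 with rosiglitazone had 0.50 in 3T3-L1 (0.000714) and −0.26 in DFAT (0.00385). Pex3 with rosiglitazone had 0.49 in 3T3-L1 (0.00275) and −0.13 in DFAT (0.337). Of these 4, Hsd17b4 alone was called in both systems. Its mouse value is uncertain, since it overlaps on the same strand a pseudogene of Cd63 with a mean of 5421. Some of the other pairs also had log2 fold changes of opposite sign without meeting the rule on every library. Far1 with rosiglitazone, at −0.27 in 3T3-L1 and 0.27 in DFAT, was among them.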

How the results depend on the processing

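No member or context gene called against vehicle changed sign under any alternative. With the replicate block the number of members called in 3T3-L1 went from 0 to 1 for dicoumarol (all genes from 0 to 79), 2 to 6 for magnolol (193 to 780) and 7 to 12 for the combination (821 to 2124) against vehicle, and from 0 to 4 for the combination against dicoumarol (4 to 569). In DFAT it went from 1 to 3 for magnolol against vehicle (626 to 1360), where limma added PEX3 (0.0151) and PHYH (0.00628) as lower. For the combination against magnolol it went from 0 to 2 (92 to 290). With rosiglitazone against vehicle PHYH (0.00851) was added (1604 to 2368). The DFAT block was fitted to all groups, and the numbers do not pair the vehicle libraries with the others. With only the groups compared the count went from 2 to 1 for 3T3-L1 magnolol (all genes from 193 to 102), 11 to 6 for 3T3-L1 rosiglitazone against the combination (2879 to 1465), 5 to 3 for DFAT rosiglitazone (1604 to 936) and 6 to 1 for DFAT rosiglitazone against the combination (2523 to 1336). Without a variance trend it was 1 for 3T3-L1 magnolol (80 of all genes). When 1 library was left out, counts in 3T3-L1 ran from 0 to 1 for magnolol, 4 to 7 for the combination, 16 to 17 for rosiglitazone and 5 to 12 for rosiglitazone against the combination. In DFAT they ran from 0 to 1 for magnolol, 0 to 1 for the combination against dicoumarol, 3 to 5 for rosiglitazone and 4 to 5 for rosiglitazone against the combination. The cause was not tested, beyond the fewer libraries of the smaller fits. Counts over all genes in the fits that left out 1 library are not given, here or above. Member counts from those fits therefore do not set the members against other genes. Of the 17 members called with rosiglitazone in 3T3-L1, 16 were called in every fit that left out 1 library, against 4 of 7 with the combination and 0 of 2 with magnolol. In DFAT it was 3 of 5 with rosiglitazone, 1 of 1 with the combination and 0 of 1 with magnolol. Ehhadh in 3T3-L1 and ABCD2 in DFAT were under the minimum mean and were not tested at this depth.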
